A study of Neurospora crassa with 42 samples.

Results

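Glycolysis in the filamentous fungus Neurospora crassa was followed through the transcripts of 9 genes for its core enzymes, out of 9758 genes measured. The genes were chosen by identifier and by the step each enzyme catalyses, not by a threshold on measured values. They are hexokinase (emp-1, NCU02542), phosphoglucose isomerase (gpi-1, NCU07281), phosphofructokinase (emp-3, NCU00629), aldolase (fba, NCU07807), triosephosphate isomerase (NCU07550, which has no symbol in the annotation used), glyceraldehyde-3-phosphate dehydrogenase (gpd-1, NCU01528), phosphoglycerate kinase (pgk, NCU07914), enolase (emp-7, NCU10042) and pyruvate kinase (ace-8, NCU06075). Each was detected in all 42 libraries.

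Glycolysis splits a hexose sugar into a pair of triose phosphates and oxidises these to pyruvate, yielding ATP and NADH. The enzymes down to aldolase handle hexose, and those after it handle triose. Hexokinase, phosphofructokinase and pyruvate kinase catalyse the steps that are practically irreversible in the cell, whereas the other enzymes also run backwards when sugar is made from smaller compounds. In that direction, fructose-1,6-bisphosphatase (fbp-1) replaces phosphofructokinase, and phosphoenolpyruvate carboxykinase (acu-6) with pyruvate carboxylase replaces pyruvate kinase. In fungi, preferred sugars and the catabolite repressor CRE-1 set much of carbon metabolism.

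RNA was sequenced from mycelium in 14 groups of 3 biological replicates. All cultures grew for 16 h on 2% sucrose and were then washed and moved to medium with 2% Avicel, a microcrystalline cellulose, or with no carbon source (starved). After 10 h the groups, all starved, were Δcre-1Δclr-3, Δos-1Δclr-3 and Δos-2Δclr-3, which lack both genes named, the single deletions Δcre-1, Δos-1, Δos-2 and Δclr-3, and wild type (WT, FGSC 2489). After 4 h they were Δclr-1, Δclr-2 and WT on Avicel, and starved Pccg1-clr-2, Δclr-3 and WT. Pccg1-clr-2 expresses clr-2 from the ccg-1 promoter in a strain that also carries Δclr-2, so it differs from WT in both respects. The genes clr-1 and clr-2 encode activators of cellulase genes, clr-3 encodes a repressor of that response, cre-1 encodes the carbon catabolite repressor, and os-1 and os-2 encode a histidine kinase and the MAP kinase of the osmosensing pathway. Whether a mutant is represented by 1 or several isolates is not given in the sources used here. By its title the study asks how a kinase cascade for osmolarity takes part in sensing nutrients.

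Levels are in FPKM, fragments relative to transcript length and library size, so they can be set side by side between genes. Changes are log2 fold changes of FPKM + 1, given ± the standard error (SE) of the limma fit, and FPKM means are given ± SD of 3 libraries. A gene is said to have risen, fallen or changed where limma's Benjamini-Hochberg adjusted p over all genes tested was under 0.05, at any size of change. FPKM are relative values, and in several comparisons the median of all genes moved by more than 0.1. The main counts of the 9 genes are therefore also given after median-ratio rescaling. It divides each library by the median, over genes, of its ratio to the geometric mean of the fit's libraries. Only genes above 0 in all those libraries enter that median. Another scaling set the FPKM of every library to the same sum (TPM scaling). In bulk RNA, fewer cells with a transcript and less of it per cell cannot be told apart.

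Across all libraries the deleted genes ran at 0 to 8.52 FPKM in their own deletion strains, below every library of the other strains for the same gene, and clr-2 ran at 207 to 363 FPKM in Pccg1-clr-2. Every 10 h library had a mean correlation with its group of at least 0.994. At 4 h the library farthest from its own group was replicate 1 in WT on Avicel (0.932), in Δclr-1 (0.975) and in Pccg1-clr-2 (0.980), and replicate 2 in starved WT (0.965). These 4 libraries also held the highest gpd-1 and acu-6 levels of their groups. In Δclr-2 (0.9855) and starved Δclr-3 (0.9935) the farthest library was replicate 1, which held the lowest share of gpd-1 in its group. That share was 0.349% of all FPKM in Δclr-2, against 0.496% and 0.462%, and 0.471% in Δclr-3, against 0.487% and 0.517%. Fits without the farthest library of each group leave out all of these, and calls that changed in them are named with the 4 h results. The files used hold no counts, so depth is unknown in absolute terms. Judged from the width of the deposited bounds, it ran from 0.232 times that of the median library, in replicate 1 of WT on Avicel, to 2.15 times. Transcripts that mark conidia and aerial hyphae (con-6, con-8, con-10, eas, fl and acon-3) were above 0 in every library and summed to 1283 to 21436 FPKM.

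The first enzymes of the pathway were transcribed at moderate levels. The hexokinase gene (NC12 linkage group I, 2674481-2678357) ran from 129 to 323 FPKM over the 42 libraries, lowest in Δos-2Δclr-3 and highest in starved WT at 4 h. The phosphoglucose isomerase gene (linkage group IV, 4532625-4534989) ran from 77.7 to 448 FPKM. It was at 84.6 ± 6.96 FPKM in Δos-2Δclr-3 and at 414 ± 51.5 FPKM in starved Δclr-3 at 4 h, its lowest and highest groups. The phosphofructokinase gene (linkage group I, 7764287-7768767) was the weakest of the 9 in every group, with 39.1 to 115 FPKM. The aldolase gene (linkage group V, 220460-223264), whose product splits the hexose, ran from 281 to 1129 FPKM.

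Among the triose enzymes the levels were more spread out. The triosephosphate isomerase gene (linkage group III, 4405030-4406835) ran from 53.8 to 324 FPKM, and its highest group, Δcre-1 with 297 ± 4.85 FPKM, held 5.19 times the level of its lowest group, Δos-2Δclr-3 with 57.2 ± 2.97 FPKM. The gpd-1 gene (linkage group II, 3180104-3182245), also known as the clock-controlled gene ccg-7, was the strongest of the 9 in every group and ran from 1177 to 10265 FPKM. Among 9746 genes it ranked between 5 and 50 by level in the 42 libraries, and its group means spanned 6.93-fold, the widest range of the 9. The genes for phosphoglycerate kinase (linkage group IV, 1370566-1372853), enolase (linkage group I, 5945167-5948228) and pyruvate kinase (linkage group VII, 1892860-1898500) ran from 221 to 619.5, from 512 to 1304 and from 143 to 507 FPKM. Phosphoglycerate mutase, which acts between phosphoglycerate kinase and enolase, is not among the 9.

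Sorted by level, neighbouring groups mostly overlapped in their libraries: of 13 neighbouring pairs per gene, between 7 (aldolase) and 11 (enolase) overlapped. Δcre-1Δclr-3 had the highest mean of the 14 groups for phosphofructokinase, gpd-1, phosphoglycerate kinase, enolase and pyruvate kinase. Δos-2Δclr-3 had the lowest for hexokinase, phosphoglucose isomerase, aldolase, triosephosphate isomerase and enolase. The strandedness of the libraries is not given in the sources used here, and the annotated spans of 4 genes overlap those of neighbours. These neighbours were weaker than the glycolytic gene in the case of phosphofructokinase (NCU00630, 3.81 to 22.2 FPKM) and phosphoglycerate kinase (NCU07913, 44.4 to 107 FPKM). NCU07549, beside triosephosphate isomerase, ran from 23.4 to 70.2 FPKM and NCU06076, beside pyruvate kinase, from 101 to 204 FPKM, while NCU06074, on its other side, reached at most 4.03 FPKM. Values of these 4 glycolytic genes are uncertain to the extent that reads were shared.

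**Figure D1:**
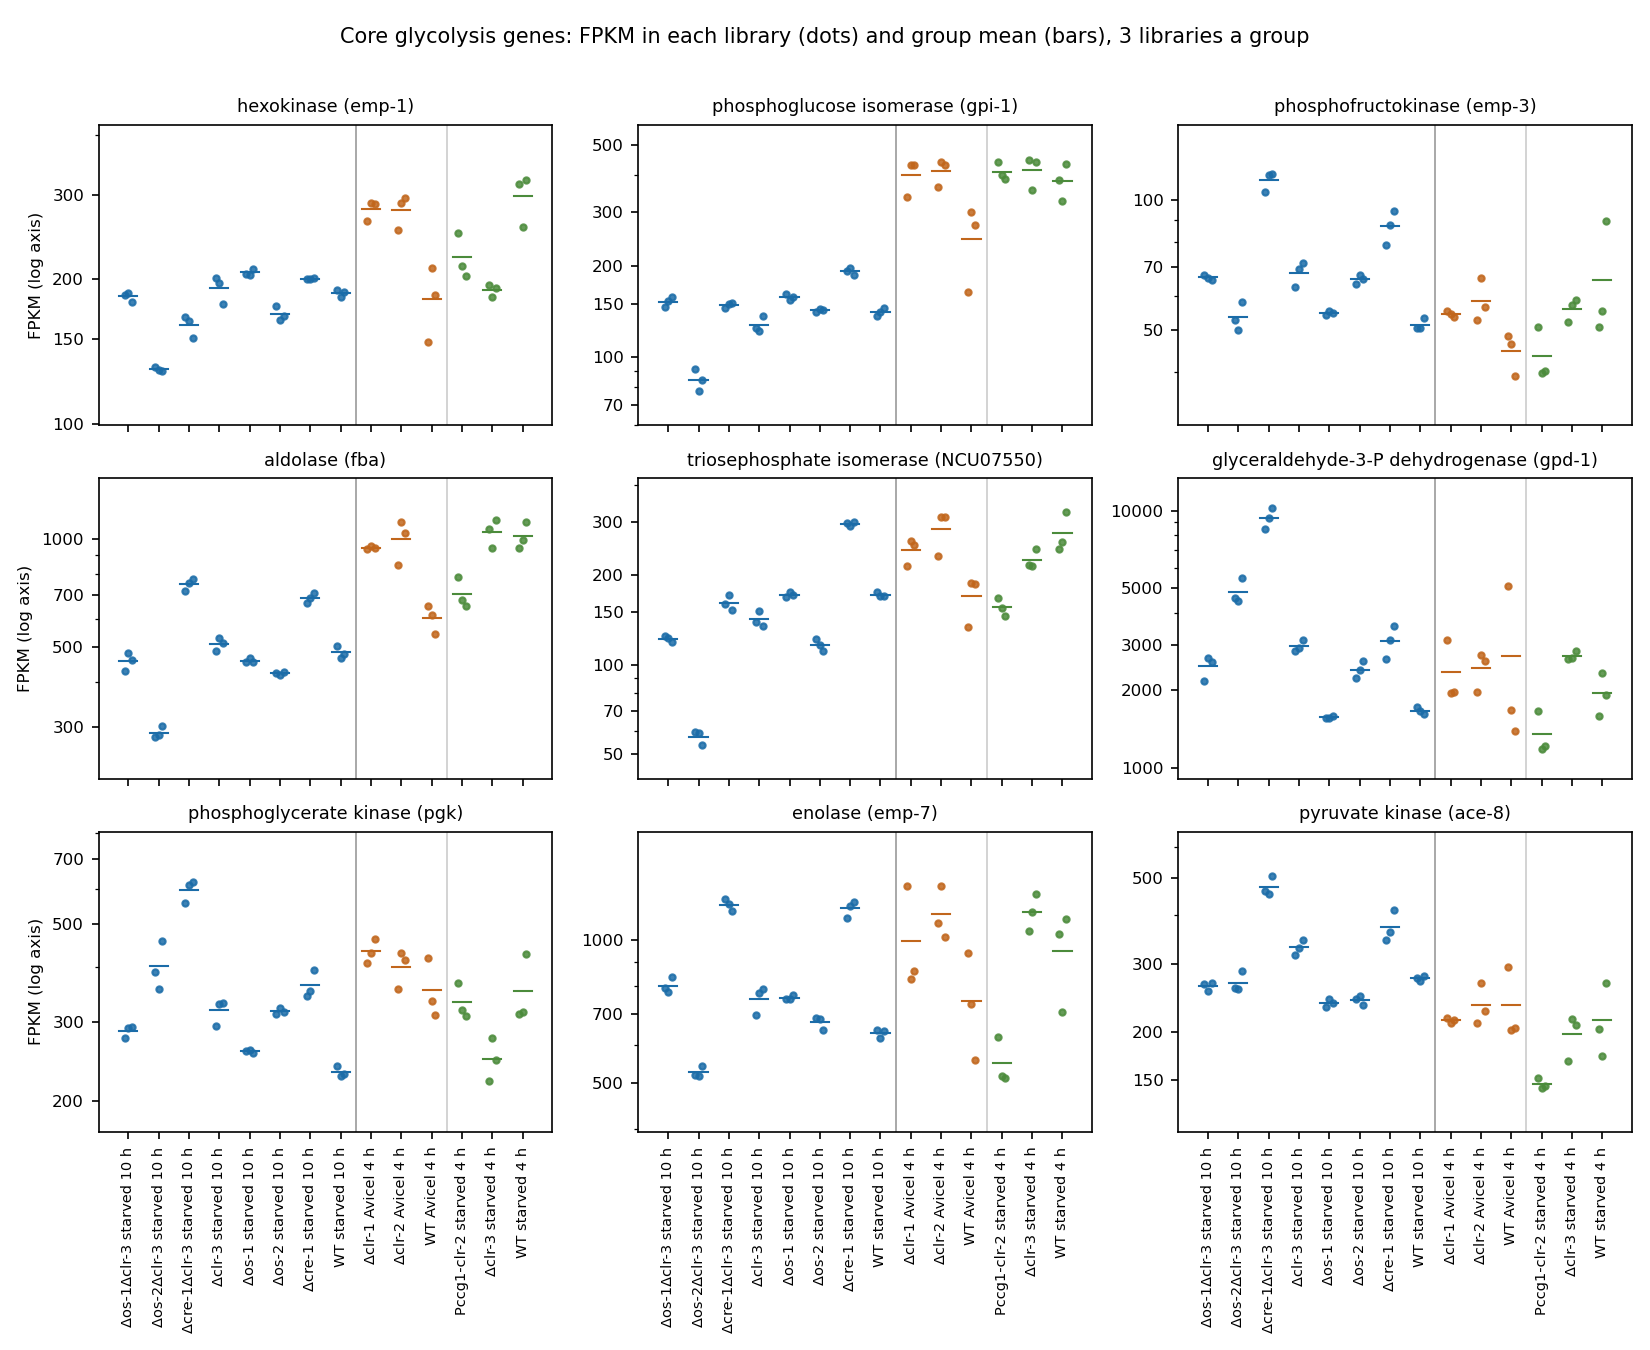
FPKM of the 9 core glycolysis genes in each of the 42 libraries (dots, 3 a group) with the group mean (horizontal bars), on log axes; blue is starved 10 h, orange is Avicel 4 h and green is starved 4 h. gpd-1 reached 10265 FPKM in Δcre-1Δclr-3, and triosephosphate isomerase fell to 53.8 FPKM in Δos-2Δclr-3.

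Loss of the catabolite repressor raised nearly the whole pathway in starved mycelium. In Δcre-1 against WT at 10 h, 8 of the 9 genes rose and none fell, where 19% of all genes tested rose and 46.7% fell. The median change of the 9 was 0.64, against -0.16 over all genes, and after median-ratio rescaling all 9 rose, where 31.6% of all genes rose and 30.3% fell. gpd-1 had 2648, 3128 and 3551 FPKM in the 3 Δcre-1 libraries and 1718, 1665 and 1611 FPKM in the 3 WT libraries. The groups did not overlap, with a change of 0.89 ± 0.10 (adjusted p = 1.85e-07, limma). Enolase, which makes phosphoenolpyruvate, had 1115, 1181 and 1207 FPKM in Δcre-1 and 647, 621 and 642 FPKM in WT. Every Δcre-1 library lay far above the WT ones, and the change was 0.87 ± 0.05 (adjusted p = 1.88e-11). Triosephosphate isomerase rose by 0.79 ± 0.05 and phosphofructokinase, the committed step, by 0.74 ± 0.06. Of the genes that rose, pyruvate kinase (0.44 ± 0.06) and phosphoglucose isomerase (0.44 ± 0.05) changed least. Hexokinase alone did not pass the test, with 201 ± 0.821 FPKM in Δcre-1 and 188 ± 3.39 FPKM in WT (0.10 ± 0.05, adjusted p = 0.0682). Summed over the 9 genes, Δcre-1 held 1.14 ± 0.0956% of all FPKM of a library, against 0.707 ± 0.00570% in WT. The conidial markers summed to 9703 to 15975 FPKM in Δcre-1 and 5794 to 8867 FPKM in WT, with 3 of the 6 higher and 2 lower, and their part in the result was not tested.

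**Figure D2:**
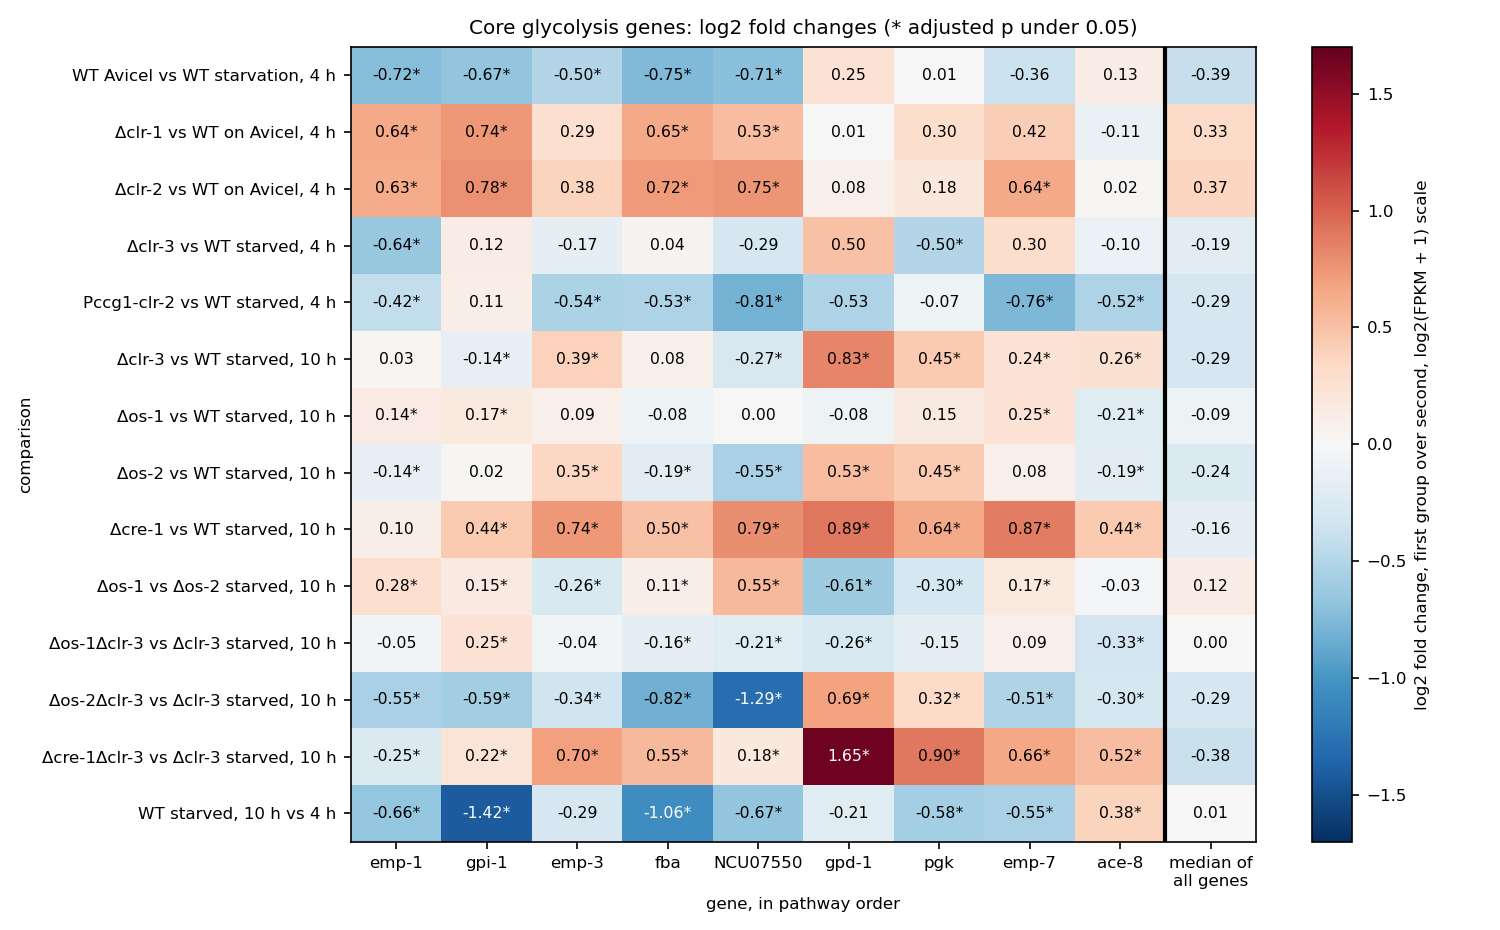
Log2 fold changes on the log2(FPKM + 1) scale of the 9 genes in the 14 comparisons of 2 groups, the first group named over the second, with the median over all genes tested in the last column; an asterisk marks an adjusted p under 0.05 (limma). The Δcre-1 row is positive throughout (0.10 to 0.89) while the median of all genes is -0.16, and the row for Δos-2Δclr-3 against Δclr-3 runs from -1.29 to 0.69.

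In the strains without clr-3, gpd-1 had the largest of the 9 changes on loss of cre-1. Δcre-1Δclr-3 had 8511, 9317 and 10265 FPKM of gpd-1, against 2848, 2910.4 and 3149.6 FPKM in Δclr-3. The lowest double mutant library lay far above the highest Δclr-3 library, and the change was 1.65 ± 0.10 (adjusted p = 8.62e-12). In FPKM as deposited it alone of the 9 genes was past 2-fold, where 14.6% of all genes were. After median-ratio rescaling 4 of the 9 were, with gpd-1 at 2.05, enolase at 1.06, phosphoglycerate kinase and phosphofructokinase, where 12.1% of all genes were. Phosphoglycerate kinase, the next enzyme, had 557, 612 and 619.5 FPKM in Δcre-1Δclr-3 and 295, 330.0 and 332 FPKM in Δclr-3 (0.90 ± 0.07). Here too the groups were far apart. In all, 8 of the 9 genes rose and 1 fell, where 17.2% of all genes rose and 63.8% fell, and the median change was 0.55 against -0.38 over all genes. The fall was in hexokinase (161 ± 8.45 FPKM in Δcre-1Δclr-3 and 192 ± 12.2 FPKM in Δclr-3, -0.25 ± 0.05), and it turned into a rise of 0.15 after median-ratio rescaling (adjusted p = 0.00622), under which all 9 genes rose, 36% of all genes rose and 37.5% fell. Triosephosphate isomerase, which had risen in Δcre-1 against WT, changed here by 0.18 ± 0.05, with 160.1, 171 and 152 FPKM in the double mutant and 139, 151 and 135 FPKM in Δclr-3. The conidial markers summed to 8089 to 10752 FPKM in Δcre-1Δclr-3 and 4684 to 5115 FPKM in Δclr-3, with 2 of 6 higher and 3 lower, and their part was not tested. Much of the sum was eas, at 4958 to 7307 FPKM and 2177 to 2213 FPKM, while con-10, fl and acon-3 ran lower in Δcre-1Δclr-3.

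The effect of losing cre-1 differed between the clr-3 backgrounds for several genes. The interaction, the log2 effect of Δcre-1 in Δclr-3 minus its effect in WT, passed the test for 6 of the 9 genes, 2 upwards and 4 downwards, where 12.2% of all genes passed upwards and 43.5% downwards. It was 0.76 ± 0.14 for gpd-1 (adjusted p = 0.000148) and 0.26 ± 0.10 for phosphoglycerate kinase (adjusted p = 0.0365). The phosphoglycerate kinase call was lost without the farthest library of each group (adjusted p = 0.0567), and without any single one of replicates 1 and 3 of WT, replicate 1 of Δclr-3, replicates 1 and 2 of Δcre-1 and replicates 2 and 3 of Δcre-1Δclr-3. For triosephosphate isomerase it was -0.61 ± 0.07 (adjusted p = 7.78e-07), opposite in sign to its reaction partner gpd-1. The gpd-1 and triosephosphate isomerase interactions kept their calls and signs under both other scalings. The downward interactions of phosphoglucose isomerase and enolase, at -0.23 ± 0.07 and -0.21 ± 0.07, came to 0.0011 and 0.02 after median-ratio rescaling, and that of hexokinase, at -0.35 ± 0.06, no longer passed the test there. The median interaction over all genes was -0.21, and after that rescaling 23.9% of all genes passed upwards and 24.3% downwards. Of the 9, 4 then passed upwards, with aldolase (0.28, adjusted p = 0.0215) and pyruvate kinase (0.31, adjusted p = 0.0262) beside gpd-1 and phosphoglycerate kinase, and triosephosphate isomerase alone passed downwards.

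As a share of the transcriptome, glycolysis was largest in Δcre-1Δclr-3. The 9 genes summed to 2.23 ± 0.165% of all FPKM there, 1.20 ± 0.118% in Δos-2Δclr-3, 0.948 ± 0.0579% in Δclr-3 and 0.707 ± 0.00570% in WT at 10 h (SD, n = 3 each). gpd-1 made up 72.2 ± 1.63% of that sum in Δcre-1Δclr-3, 72.6 ± 1.23% in Δos-2Δclr-3, 54.9 ± 0.973% in Δclr-3 and 43.3 ± 0.782% in WT. Without gpd-1 the other 8 genes summed to 3589 ± 48.4 FPKM in Δcre-1Δclr-3, 3365 ± 135 in Δcre-1, 1812 ± 94.3 in Δos-2Δclr-3, 2443 ± 103 in Δclr-3 and 2179.6 ± 45.0 in WT.

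**Figure D3:**
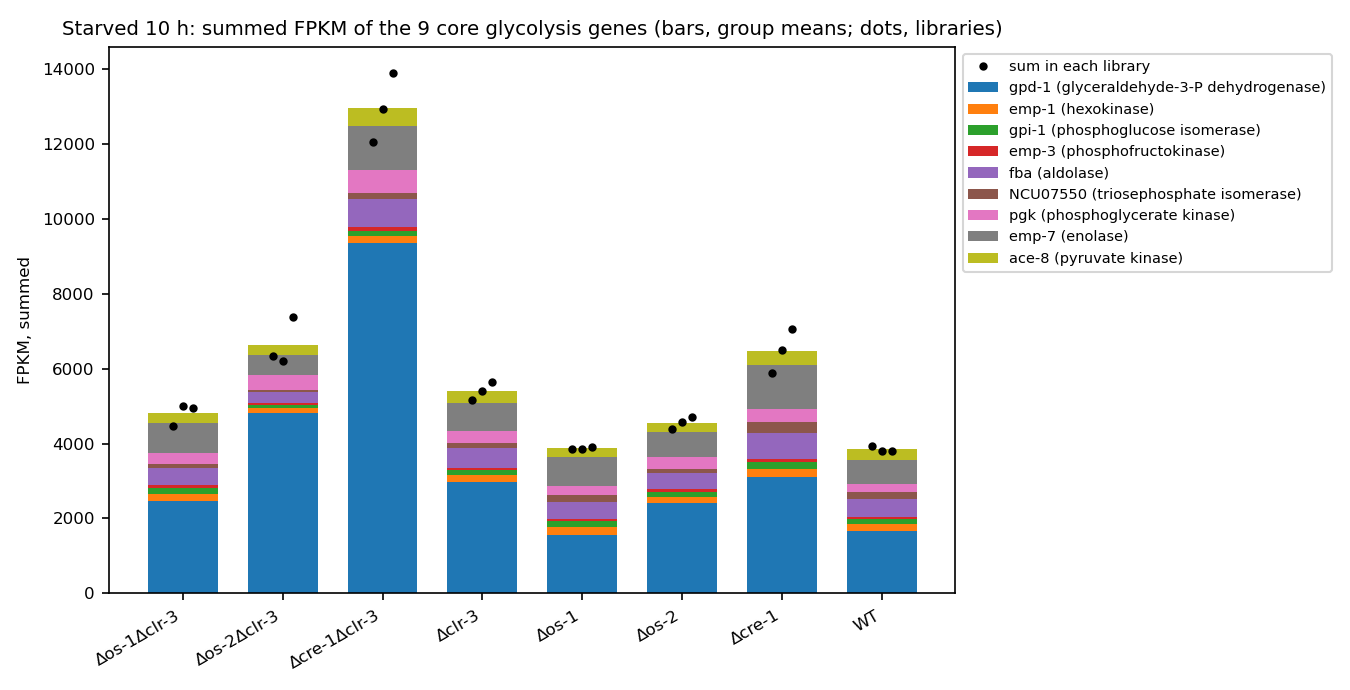
Summed FPKM of the 9 core glycolysis genes in the 8 strains starved for 10 h: bars stack the group means gene by gene, and dots give the sum in each of 3 libraries. The gpd-1 segment is 72.2% of the bar in Δcre-1Δclr-3, 72.6% in Δos-2Δclr-3 and 43.3% in WT.

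Loss of os-2, the osmosensing MAP kinase, moved the enzymes in both directions. In Δos-2 against WT at 10 h, 3 genes rose and 4 fell, where 17.8% of all genes rose and 56.5% fell. gpd-1 had 2225, 2402 and 2589 FPKM in Δos-2 and 1718, 1665 and 1611 FPKM in WT (0.53 ± 0.10, adjusted p = 8.7e-05). All Δos-2 libraries lay above all WT libraries. Phosphoglycerate kinase (0.45 ± 0.07) and phosphofructokinase (0.35 ± 0.06) rose as well. Triosephosphate isomerase fell to 122, 117 and 111 FPKM in Δos-2, against 175, 169.6 and 170.2 FPKM in WT (-0.55 ± 0.05, adjusted p = 5.62e-09). This fall held under both other scalings. The smaller falls of hexokinase (-0.14 ± 0.05), aldolase (-0.19 ± 0.05) and pyruvate kinase (-0.19 ± 0.06) came to 0.09, 0.05 and 0.05 after median-ratio rescaling and were then not called. After that rescaling 5 of the 9 genes were called higher and 1 lower, as were 32.9% and 34.6% of all genes, whose median had been -0.24. The conidial markers summed to 19759.5 to 21436 FPKM in Δos-2 and 5794 to 8867 FPKM in WT, with 5 of 6 higher and 1 lower, a difference whose part was not tested.

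The split was widest in Δos-2Δclr-3. Against Δclr-3, 7 of the 9 genes fell and 2 rose, where 62.7% of all genes fell and 12.1% rose. Triosephosphate isomerase had 59.1, 58.7 and 53.8 FPKM in Δos-2Δclr-3 and 139, 151 and 135 FPKM in Δclr-3 (-1.29 ± 0.05, adjusted p = 3.64e-14). In FPKM as deposited it alone of the 9 was past 2-fold, where 8.46% of all genes were. After median-ratio rescaling it was at -0.97, and gpd-1, at 1.02, was the 1 gene past 2-fold, where 7.33% of all genes were. Aldolase had 281, 286 and 303 FPKM in the double mutant and 489, 529 and 515 FPKM in Δclr-3 (-0.82 ± 0.05). The libraries of the 2 strains were well apart for both genes. Phosphoglucose isomerase (-0.59 ± 0.05), hexokinase (-0.55 ± 0.05) and enolase (-0.51 ± 0.05) fell as well. All 5 of these falls were still called after median-ratio rescaling, where 30.7% of all genes rose and 30.4% fell. Before it the median of all genes was -0.29. Those of phosphofructokinase (-0.34 ± 0.06) and pyruvate kinase (-0.30 ± 0.06) were not, and came to -0.02 and 0.02. Against this trend gpd-1 rose to 4548, 4457 and 5463 FPKM in Δos-2Δclr-3, against 2848, 2910.4 and 3149.6 FPKM in Δclr-3 (0.69 ± 0.10, adjusted p = 3.36e-06), and phosphoglycerate kinase rose by 0.32 ± 0.07. The 2 enzymes act in sequence, and both rises held under all 3 scalings.

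Triosephosphate isomerase and gpd-1, neighbours in the pathway, moved apart. In FPKM, gpd-1 was 84.8 ± 14.5 times triosephosphate isomerase in Δos-2Δclr-3 and 58.4 ± 7.96 times in Δcre-1Δclr-3, against 21.0 ± 2.07 times in Δclr-3 and 9.71 ± 0.211 times in WT. In Δos-1Δclr-3 it was 20.4 ± 2.45 times and in Δos-2 20.7 ± 2.51 times. Δcre-1, at 10.5 ± 1.5 times, overlapped WT. This ratio lies within a library and does not depend on its scaling.

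The interaction of os-2 with clr-3 passed the test downwards for 6 of the 9 genes and upwards for none, where 25.6% of all genes passed downwards and 14% upwards. These were triosephosphate isomerase (-0.74 ± 0.07), phosphofructokinase (-0.68 ± 0.09), aldolase (-0.63 ± 0.07), phosphoglucose isomerase (-0.61 ± 0.07), enolase (-0.59 ± 0.07) and hexokinase (-0.41 ± 0.06), with adjusted p from 2.16e-07 to 5.86e-05. All 6 remained called in the same direction under the 3 scalings. Over all genes the median interaction was -0.08, and after median-ratio rescaling 19.2% of all genes passed downwards and 19.3% upwards. For gpd-1 it was 0.17 ± 0.14 (adjusted p = 0.369), and for phosphoglycerate kinase and pyruvate kinase it was -0.12 ± 0.10 and -0.12 ± 0.08, none of which passed the test. The conidial markers summed to 7692 to 10691 FPKM in Δos-2Δclr-3 and 4684 to 5115 FPKM in Δclr-3, with 2 of 6 higher and 2 lower. Much of the sum was eas, at 5670 to 8507 FPKM and 2177 to 2213 FPKM. con-10 ran lower in Δos-2Δclr-3, at 629 to 744 FPKM against 993 to 1385 FPKM. The marker sums were 19759.5 to 21436 FPKM in Δos-2 and 5794 to 8867 FPKM in WT, and the part of the markers was not tested.

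**Figure D4:**
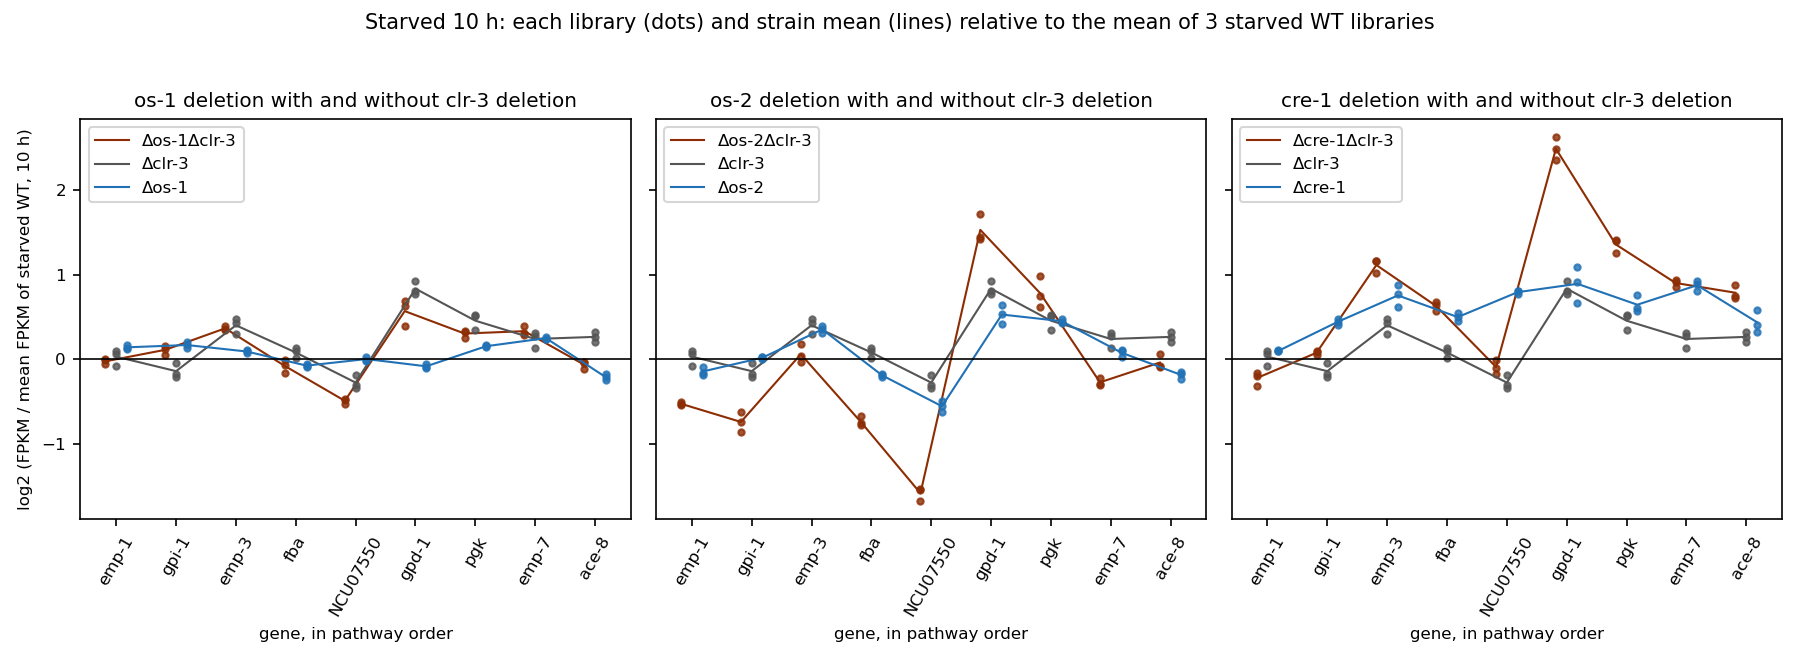
Log2 ratio of each library's FPKM to the mean FPKM of the 3 WT libraries, for the 9 genes in pathway order, in strains starved for 10 h; dots are libraries and lines join strain means, with 1 panel each for os-1, os-2 and cre-1. In the middle panel Δos-2Δclr-3 lies lowest at NCU07550 and swings up at gpd-1, and in the right panel Δcre-1Δclr-3 peaks at gpd-1.

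Deletion of clr-3 alone raised phosphofructokinase and the enzymes from gpd-1 to pyruvate kinase after 10 h. Against WT, 5 of the 9 genes rose and 2 fell, where 9.58% of all genes rose and 64% fell. gpd-1 had 2848, 2910.4 and 3149.6 FPKM in Δclr-3 and 1718, 1665 and 1611 FPKM in WT (0.83 ± 0.10, adjusted p = 4.18e-07), with no overlap. Phosphoglycerate kinase (0.45 ± 0.07), phosphofructokinase (0.39 ± 0.06), pyruvate kinase (0.26 ± 0.06) and enolase (0.24 ± 0.05) rose with it, and all 5 rises held under the 3 scalings. The falls of triosephosphate isomerase (-0.27 ± 0.05) and phosphoglucose isomerase (-0.14 ± 0.05) were no larger than the median of all genes, -0.29, and came to 0.04 and 0.18 after median-ratio rescaling, the second of them then called as a rise (adjusted p = 0.0167). After that rescaling 8 of the 9 genes were called higher and none lower, as were 28.7% and 27.3% of all genes. The phosphoglucose isomerase fall also lost its call when replicate 3 of WT, or replicate 1 or 2 of Δclr-3, was left out. Conidial markers summed to 4684 to 5115 FPKM in Δclr-3 and 5794 to 8867 FPKM in WT, with 1 of 6 higher and 3 lower, and their part was not tested.

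Loss of os-1, the histidine kinase, changed the enzymes little. In Δos-1 against WT, 3 genes rose and 1 fell, where 11.5% of all genes rose and 30.9% fell, and no change exceeded 0.25. Enolase had 753, 753 and 764 FPKM in Δos-1 and 647, 621 and 642 FPKM in WT (0.25 ± 0.05, adjusted p = 0.000418), and its groups did not overlap. Phosphoglucose isomerase (0.17 ± 0.05) and hexokinase (0.14 ± 0.05) rose less, and pyruvate kinase fell by 0.21 (SE 0.06), a fall that was not called after median-ratio rescaling. Then 4 genes were called higher and none lower, as were 21.2% and 18% of all genes. gpd-1 was at 1571 ± 21.1 FPKM in Δos-1 and 1665 ± 53.4 FPKM in WT (-0.08 ± 0.10, adjusted p = 0.526). The conidial markers summed to 13127 to 20037 FPKM in Δos-1 and 5794 to 8867 FPKM in WT, with 4 of 6 higher and 1 lower, and their part was not tested.

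Set directly against each other, the strains lacking the 2 osmosensing genes differed in 8 of the 9 enzymes, 5 higher and 3 lower in Δos-1 than in Δos-2, where 44% of all genes were higher and 21.7% lower. Triosephosphate isomerase had 169, 175 and 171 FPKM in Δos-1 and 122, 117 and 111 FPKM in Δos-2 (0.55 ± 0.05, adjusted p = 7.35e-09). gpd-1 had 1564, 1554 and 1594 FPKM in Δos-1 and 2225, 2402 and 2589 FPKM in Δos-2 (-0.61 ± 0.10, adjusted p = 2.15e-05). Neither gene overlapped between the strains. Phosphoglycerate kinase (-0.30 ± 0.07) and phosphofructokinase (-0.26 ± 0.06) were lower in Δos-1 and hexokinase (0.28 ± 0.05) was higher, and these 5 calls held under all 3 scalings. The other 3, in phosphoglucose isomerase, aldolase and enolase, were between 0.11 and 0.17, near the median of all genes (0.12), and after median-ratio rescaling none was called and aldolase came to -0.01. All genes then split into 32.7% higher and 31.4% lower.

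In Δos-1Δclr-3 against Δclr-3, 1 gene rose and 4 fell, where 24.8% of all genes rose and 25% fell and their median change was 0.00. Pyruvate kinase had 266, 255 and 268 FPKM in Δos-1Δclr-3 and 317, 330.4 and 345 FPKM in Δclr-3 (-0.33 ± 0.06, adjusted p = 0.000112). Phosphoglucose isomerase rose by 0.25 ± 0.05, while triosephosphate isomerase (-0.21 ± 0.05), aldolase (-0.16 ± 0.05) and gpd-1 (-0.26, SE 0.10) fell. The gpd-1 fall was not called under either other scaling (adjusted p = 0.0801 and 0.0721), and without replicate 1 of Δos-1Δclr-3 only 3 genes were called. After median-ratio rescaling 1 gene was called higher and 3 lower, as were 25.9% and 26.9% of all genes. The sum of conidial markers was 16849 to 20724 FPKM in Δos-1Δclr-3 and 4684 to 5115 FPKM in Δclr-3, with 5 of 6 higher and 1 lower, and their part was not tested. The interaction of os-1 with clr-3 passed downwards for 3 genes, where 6.18% of all genes did, at -0.30 for phosphoglycerate kinase, -0.22 for triosephosphate isomerase and -0.19 for hexokinase. Over all genes 20.6% passed upwards, and after median-ratio rescaling 4 of the 9 passed downwards and the split was 11.1% upwards and 12.4% downwards. Under TPM scaling, and without replicate 2 or 3 of WT or replicate 2 of Δclr-3, no gene was called (limma, 4 with an unadjusted p under 0.05 in the full fit). Without replicate 2 of Δos-1 or replicate 3 of Δos-1Δclr-3, 1 gene was.

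Starvation time could be compared in WT, although the 10 h and 4 h libraries form 2 sets whose times and sets cannot be told apart. At 10 h against 4 h, 6 of the 9 genes fell and 1 rose, where 29.8% of all genes fell and 29.7% rose and the median of all genes was 0.01. Phosphoglucose isomerase had 137, 141 and 145 FPKM at 10 h and 383, 326 and 434 FPKM at 4 h (-1.42 ± 0.12, adjusted p = 2.78e-06). Aldolase had 504, 467 and 480.2 FPKM at 10 h and 940.4, 991 and 1114 FPKM at 4 h (-1.06 ± 0.10, adjusted p = 5.4e-06). These 2 were past 2-fold, as 18.2% of all genes were, and neither overlapped between the times. Triosephosphate isomerase (-0.67 ± 0.11), hexokinase (-0.66 ± 0.09), phosphoglycerate kinase (-0.58 ± 0.13) and enolase (-0.55 ± 0.15) also fell, and all 6 falls held under the 3 scalings. gpd-1, with 1718, 1665 and 1611 FPKM at 10 h and 1593, 2333 and 1911 FPKM at 4 h, overlapped (-0.21 ± 0.13, adjusted p = 0.195). Pyruvate kinase, at the end of the pathway, rose to 276, 271 and 278 FPKM at 10 h, against 203, 173 and 267 FPKM at 4 h (0.38 ± 0.15, adjusted p = 0.0408), but this call was lost in the fit of the 2 groups alone and when any single WT library other than replicate 3 at 4 h was left out.

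The effect of clr-3 deletion differed between the times for hexokinase and phosphoglycerate kinase, 2 of the 9 genes, both upwards, where 9.32% of all genes passed upwards. The difference of effects, 10 h minus 4 h, was 0.95 ± 0.18 for phosphoglycerate kinase (adjusted p = 0.00421) and 0.67 ± 0.13 for hexokinase (adjusted p = 0.00516). At 10 h hexokinase was at 192 ± 12.2 FPKM in Δclr-3 and 188 ± 3.39 FPKM in WT. At 4 h it was at 190.2 ± 5.55 FPKM in Δclr-3 and 298 ± 35.8 FPKM in WT. Without replicate 1 or without replicate 2 of WT at 4 h, 4 genes passed. After median-ratio rescaling both calls remained, and 13.5% of all genes passed upwards.

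At 4 h, cellulose and the cellulase regulators were compared with larger spread between replicates. On Avicel against starvation in WT, 5 of the 9 genes fell, where 35.7% of all genes fell and 5.26% rose. They were the hexose enzymes and triosephosphate isomerase: aldolase (-0.75 ± 0.15), hexokinase (-0.72 ± 0.15), triosephosphate isomerase (-0.71 ± 0.17), phosphoglucose isomerase (-0.67 ± 0.20) and phosphofructokinase (-0.50 ± 0.18). Aldolase had 649, 613 and 545 FPKM on Avicel and 940.4, 991 and 1114 FPKM in starved WT, without overlap. The median of all genes fell by 0.39, and after median-ratio rescaling none of the 9 was called by limma, with 3 at an unadjusted p under 0.05, where 11.4% of all genes rose and 7.93% fell. None was called either when only these 2 groups were fitted. The share of all genes called in that fit is not given here, so this count is not read as particular to the 9 genes. Without replicate 1 of WT on Avicel phosphoglucose isomerase was at -0.40 and no longer called (adjusted p = 0.0624). With each group's farthest library left out, enolase passed the test at -0.74 (adjusted p = 0.00345). The remaining 4 genes, from gpd-1 to pyruvate kinase, overlapped between the groups, with changes from -0.36 to 0.25. gpd-1 had 5074, 1677 and 1393 FPKM on Avicel, of which the first is the shallowest library of the study. Its change was 0.25 ± 0.37 with that library and -0.33 without it, and neither passed the test. The conidial markers summed to 1405 to 2434 FPKM on Avicel and 7941 to 15608 FPKM in starved WT, with 6 of 6 lower, and their part was not tested.

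On Avicel, the mutants without a cellulase activator had several enzymes higher than WT. In Δclr-1 4 of the 9 genes rose, where 29.8% of all genes rose and 5.04% fell, and in Δclr-2 5 rose, where 32% rose and 4.26% fell. Aldolase had 934, 956 and 943 FPKM in Δclr-1 and 843, 1114 and 1038 FPKM in Δclr-2, against 649, 613 and 545 FPKM in WT. Its changes were 0.65 ± 0.15 and 0.72 ± 0.15. Phosphoglucose isomerase (0.74 ± 0.20 in Δclr-1 and 0.78 ± 0.20 in Δclr-2), hexokinase (0.64 ± 0.15 and 0.63 ± 0.15) and triosephosphate isomerase (0.53 ± 0.17 and 0.75 ± 0.17) rose in both mutants, and enolase in Δclr-2 (0.64 ± 0.23). Phosphofructokinase passed in neither (adjusted p = 0.216 and 0.104). Both comparisons share the 3 WT libraries with each other and with the Avicel comparison. The medians of all genes were 0.33 and 0.37. After median-ratio rescaling none of the 9 was called by limma in either mutant, with 2 in each at an unadjusted p under 0.05. All genes then split into 8.03% higher and 11% lower in Δclr-1 and 4.33% higher and 8.59% lower in Δclr-2. Fits of the 2 groups alone also called none of the 9. The share of all genes called in those fits is not given here, so that count is not read as particular to the 9. Leaving out the library farthest from the others in every group brought gpd-1 past the test, at 0.36 in Δclr-1 (adjusted p = 0.0366) and 0.80 in Δclr-2 (adjusted p = 0.00097), and likewise phosphoglycerate kinase, at 0.46 (adjusted p = 0.0185) and 0.38 (adjusted p = 0.0394). This left out the library with the most gpd-1 in WT and in Δclr-1, and that with the least in Δclr-2. Without replicate 1 of WT on Avicel, triosephosphate isomerase in Δclr-1 was at 0.37 and not called (adjusted p = 0.0941). Without replicate 2 or replicate 3 of Δclr-1, 2 genes were called there. In Δclr-2 the enolase call was lost without any single one of its replicates, and without replicate 2 or 3 of WT on Avicel.

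Among starved strains at 4 h, Pccg1-clr-2 had 6 genes lower than WT, where 26.7% of all genes were lower, and Δclr-3 had 2, where 21.9% were lower and 7.69% higher. Triosephosphate isomerase had 167, 154 and 145 FPKM in Pccg1-clr-2 and 244, 259 and 324 FPKM in WT (-0.81 ± 0.17, adjusted p = 0.00223). It was the only gene of the 6 that stayed lower after median-ratio rescaling, where phosphoglucose isomerase was called higher at 0.41 and the median of all genes had been -0.29. All genes then split into 13.4% higher and 11.1% lower, against 4.95% and 26.7% before. Pyruvate kinase was at 146 ± 4.82 FPKM in Pccg1-clr-2, its lowest group, and 214 ± 48.0 FPKM in WT (-0.52 ± 0.18). Enolase was at 550.1 ± 63.4 FPKM in Pccg1-clr-2 and 948 ± 215 FPKM in WT (-0.76 ± 0.23). The count of 6 was 2 without replicate 2 of Pccg1-clr-2, 1 without its replicate 3, 3 without replicate 1 of WT and 1 without replicate 3 of WT. Pyruvate kinase lost its call without replicate 1 of Pccg1-clr-2 (-0.55, adjusted p = 0.0536), and also without its replicate 2 or 3 or replicate 1 or 3 of WT. It was not called in the fit of these 2 groups alone either. Enolase lost its call without replicate 2 or 3 of Pccg1-clr-2 and without replicate 1 or 3 of WT. In Δclr-3 hexokinase had 195, 184 and 192 FPKM, against 315, 257 and 323 FPKM in WT (-0.64 ± 0.15, adjusted p = 0.00468), a fall that held under all 3 scalings. After median-ratio rescaling 15.9% of all genes were higher and 16.3% lower in Δclr-3. The fall of phosphoglycerate kinase (-0.50 ± 0.16) did not, nor without replicate 1 or 3 of Δclr-3 or replicate 3 of WT. Without the farthest library of each group, gpd-1 passed the test in both strains, at -0.55 in Pccg1-clr-2 (adjusted p = 0.00446) and 0.66 in Δclr-3 (adjusted p = 0.00146). That fit left out the library with the most gpd-1 in WT and in Pccg1-clr-2, and that with the least in Δclr-3.

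Few of the changes in glycolytic genes were large. Apart from gpd-1 in Δcre-1Δclr-3, triosephosphate isomerase in Δos-2Δclr-3, and phosphoglucose isomerase and aldolase between the times, none of the 9 passed the test at 2-fold or more in FPKM as deposited. After median-ratio rescaling gpd-1 also did so in Δclr-3 at 10 h (1.15), in Δcre-1 (1.06) and in Δos-2Δclr-3 (1.02), enolase in Δcre-1 (1.05), phosphoglycerate kinase and 2 other genes in Δcre-1Δclr-3 as given above, and phosphoglycerate kinase in the difference of clr-3 effects between times (1.06), while triosephosphate isomerase in Δos-2Δclr-3 no longer did. Under TPM scaling aldolase between the times did not. In FPKM as deposited, among all genes, 5.55% did so in Δclr-3 at 10 h, 2.67% in Δos-1, 10.7% in Δos-2 and 5.97% in Δcre-1. The share was 9.07% for Δos-1 against Δos-2 and 5.64% in Δos-1Δclr-3. At 4 h it was 10.5% on Avicel, 8.32% in Δclr-1, 6.45% in Δclr-2, 10.6% in Δclr-3 and 10.5% in Pccg1-clr-2. For the interactions it was 3.11% with os-1, 4.62% with os-2, 6.86% with cre-1 and 6.42% with time.

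Genes for the enzymes that bypass irreversible steps in the reverse direction were set beside their glycolytic counterparts. acu-6, for phosphoenolpyruvate carboxykinase, had 1562, 1701 and 1805 FPKM in Δcre-1Δclr-3 and 74.1, 60.5 and 76.1 FPKM in Δclr-3 (4.57 ± 0.27, adjusted p = 6.8e-12). Pyruvate kinase, which it opposes, changed by 0.52 ± 0.06 in the same comparison. In FPKM at 10 h, pyruvate kinase was 0.281 ± 0.0141 times acu-6 in Δcre-1Δclr-3, 0.433 ± 0.101 times in Δos-2Δclr-3 and 0.784 ± 0.279 times in Δos-1Δclr-3, against 4.75 ± 0.624 times in Δclr-3 and 13.9 ± 2.26 times in WT. Low ratios were not particular to the double mutants: at 4 h it was 0.210 ± 0.102 in starved Δclr-3 and ran from 0.0903 to 2.90 in starved WT. In the single mutants at 10 h the ratio was 1.02 ± 0.267 in Δos-2, 3.28 ± 1.10 in Δcre-1 and 3.75 ± 0.874 in Δos-1. acu-6 rose in each of these 3 against WT, by 3.54 ± 0.27, 2.51 ± 0.27 and 1.64 ± 0.27. At 4 h acu-6 ran from 10.1 to 1035 FPKM in WT on Avicel and from 91.9 to 1915 FPKM in starved WT (-1.73 ± 1.34, adjusted p = 0.301). Without the farthest library of each group acu-6 passed the test there, at -2.15 (adjusted p = 0.0357).

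At the phosphofructokinase step fbp-1, for fructose-1,6-bisphosphatase, had 26.7, 24.5 and 23.1 FPKM in WT at 10 h and 148, 223 and 88.0 FPKM in WT at 4 h (-2.48 ± 0.27, adjusted p = 1.76e-05). Phosphofructokinase did not pass the test between the times (-0.29 ± 0.17, adjusted p = 0.157). The ratio of phosphofructokinase to fbp-1 was 2.09 ± 0.210 at 10 h and 0.537 ± 0.419 at 4 h, and in every 10 h library it was above 1. In WT on Avicel at 4 h it was 1.35 ± 0.392, from 1.09 to 1.80, and in starved WT it ran from 0.249 to 1.02. On Avicel at 4 h fbp-1 fell to 42.2, 42.5 and 21.7 FPKM, against 148, 223 and 88.0 FPKM in starved WT (-2.04 ± 0.51, adjusted p = 0.00693), a call lost after median-ratio rescaling (adjusted p = 0.0551). At 10 h fbp-1 rose in Δos-2 (0.97 ± 0.16), Δcre-1 (0.93 ± 0.16) and Δos-1 (0.62 ± 0.16) against WT.

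**Figure D5:**
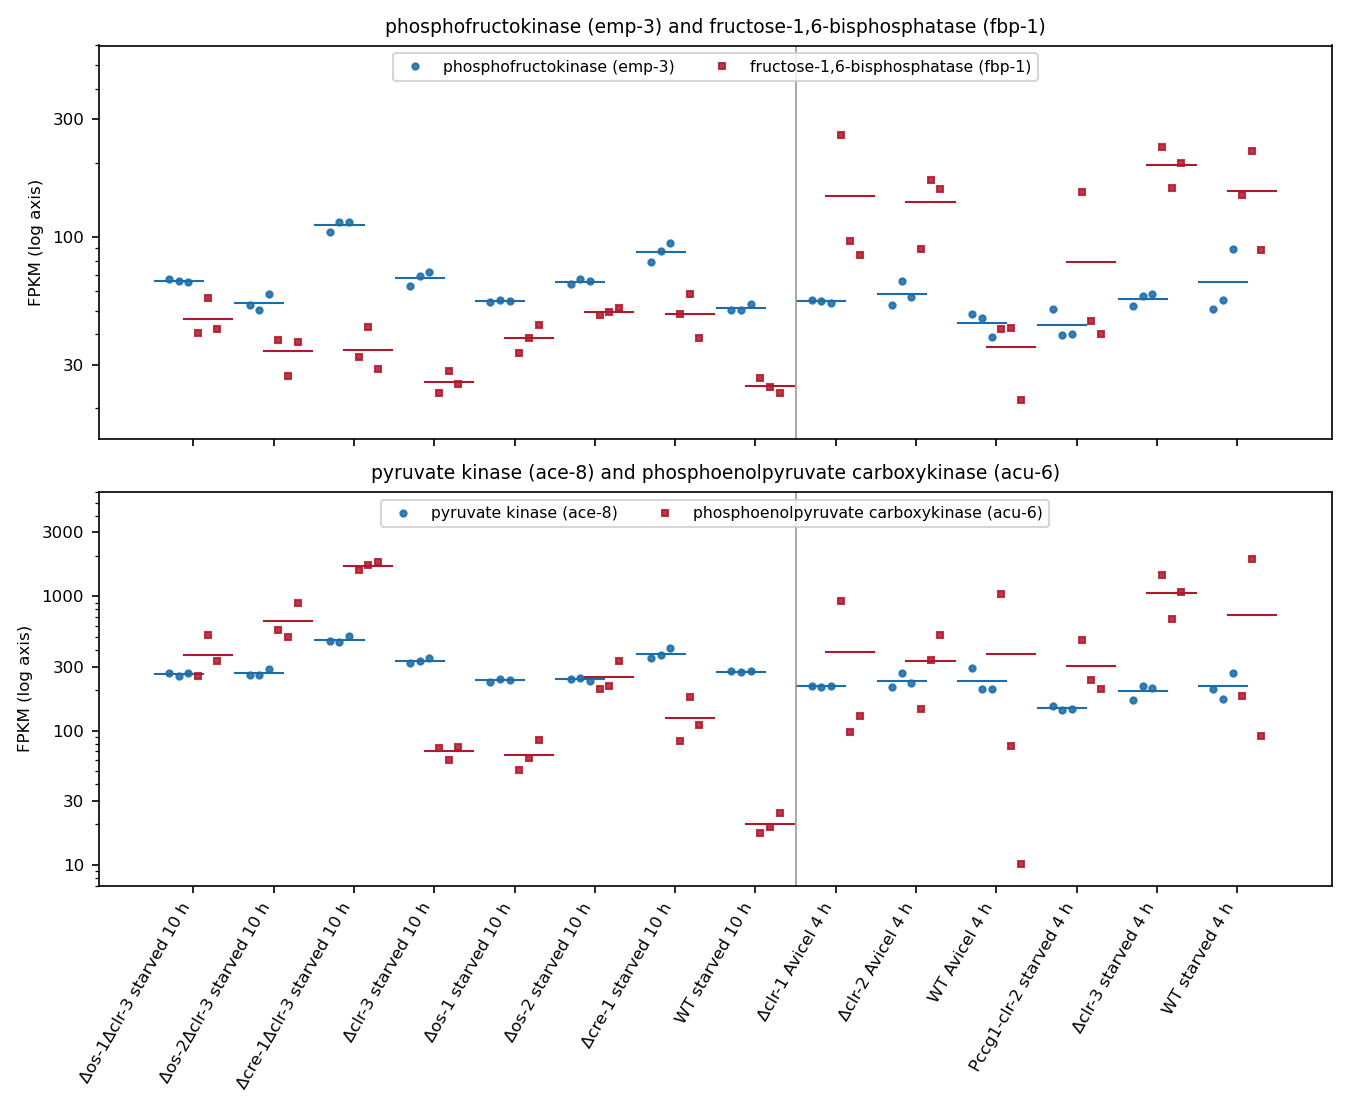
FPKM of phosphofructokinase and fructose-1,6-bisphosphatase (upper panel) and of pyruvate kinase and phosphoenolpyruvate carboxykinase (lower panel) in each library (circles and squares) with group means (bars), on log axes, in 14 groups of 3; the vertical line divides 10 h from 4 h. The reverse enzymes vary more: acu-6 runs from 10.1 to 1915 FPKM, pyruvate kinase from 143 to 507 FPKM.

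Other lists of central carbon genes, counted in the same fits, set the frame. Of 5 gluconeogenesis and glyoxylate cycle genes, 5 rose in Δcre-1, where 19% of all genes rose, 5 in Δos-2, where 17.8% did, and 4 in Δos-1, where 11.5% did, all against WT. Against Δclr-3, all 5 rose in Δos-2Δclr-3, where 12.1% of all genes rose, and 4 in Δcre-1Δclr-3, where 17.2% did. All 5 fell in WT at 10 h against 4 h, where 29.8% of all genes fell. After median-ratio rescaling these counts were unchanged, except for 5 in Δcre-1Δclr-3. Both fermentation genes rose in Δcre-1Δclr-3 and in Δos-2Δclr-3 against Δclr-3, also after that rescaling. Such rises were not particular to the double mutants. Against WT at 10 h both also rose in Δcre-1, in Δos-2 and in Δclr-3, where 9.58% of all genes rose, and 1 of the 2 rose in Δos-1. cfp, for pyruvate decarboxylase, was at 4678 ± 570.2 FPKM in Δcre-1Δclr-3, 1502 ± 313 FPKM in Δos-2Δclr-3 and 286 ± 47.4 FPKM in Δclr-3. Of 5 citric acid cycle genes, 4 rose in Δcre-1 against WT and 4 rose and 1 fell in Δcre-1Δclr-3 against Δclr-3. After the rescaling 5 were higher in Δcre-1, and 4 were higher and none lower in Δcre-1Δclr-3. In Δos-2Δclr-3 against Δclr-3, 4 of 4 pentose phosphate genes and 7 of 8 glycogen and trehalose genes fell, where 62.7% of all genes did. After the rescaling 4 pentose phosphate genes were lower, and 6 glycogen and trehalose genes were lower and 1 higher.

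A further list holds 2 genes set down as other hexose kinases from background knowledge, NCU00575 and NCU04728, which the annotation used does not name, so their role is not taken as given. They moved in opposite directions in several comparisons. NCU00575 was at 228 ± 12.6 FPKM in Δos-2Δclr-3 and 141 ± 2.74 FPKM in Δclr-3 (0.69 ± 0.06), and NCU04728 at 9.29 ± 0.764 FPKM in Δos-2Δclr-3 and 18.4 ± 0.786 FPKM in Δclr-3 (-0.92 ± 0.11). In WT on Avicel against starvation NCU00575 rose by 0.99 ± 0.20 and NCU04728 fell (-1.0, SE 0.21), and both calls held under median-ratio rescaling. In Δclr-1 against WT on Avicel they changed by -0.89 ± 0.20 and 0.97 ± 0.21. In Δos-1Δclr-3 against Δclr-3 they changed by -0.62 ± 0.06 and 0.89 ± 0.11. emp-1, at 129 to 323 FPKM, was above NCU04728, at 6.16 to 45.5 FPKM, in every library.

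Over the 14 group means the enzymes did not rise and fall as 1 block. Phosphoglucose isomerase and aldolase (Pearson's r = 0.891), aldolase and triosephosphate isomerase (0.859) and hexokinase and phosphoglucose isomerase (0.80) varied together. So did phosphofructokinase and pyruvate kinase (0.841) and gpd-1 and pyruvate kinase (0.759). The lowest values included -0.623 for phosphoglucose isomerase and pyruvate kinase and -0.526 for hexokinase and gpd-1, and other pairs lay near 0, such as aldolase and gpd-1 at -0.088. These 14 points share 2 time sets and the FPKM scaling, and the values are descriptive. Among 8236 other genes compared over the same 14 groups, the 5 most like the mean profile of the 9 were fes-1 (r = 0.928), NCU05798 (0.926), NCU05989 (0.912), qcr7 (0.911) and atp-2 (0.901). gpd-1 was matched most closely by NCU03208 (0.967), phosphoglucose isomerase by NCU08669 (0.987) and phosphoglycerate kinase, the least closely matched, by NCU05545 (0.870).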

How the data were processed

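Per the labels, each group had 3 biological replicates; the deposited values are the authors' FPKM per gene and library with their lower and upper bounds. HISAT2 2.0.5 and Cufflinks 2.2.1 are named in the submitters' processing notes, without a role, and the build is NC12; strandedness and any filter are not stated there. Genes averaging at least 1 FPKM over a fit's libraries were tested as log2(FPKM + 1) with limma 3.58.1 (R 4.3.3; intensity trend, Benjamini-Hochberg), in separate fits for 4 h (18 libraries), 10 h (24 libraries) and the time comparison. A deleted gene was left out of its own strain's comparisons. Values flagged as failed by the authors' program numbered 61, in 12 genes. The procedure was tested on simulated data with known changes. Few genes were changed in it, such as 67 of 8245 at a log2 change of 0.5 in the 4 h fit. In the real 4 h data 2950 of 8268 genes were called lower on Avicel. Of genes given a log2 change of 0.5, 17.9% were called in the 4 h fit, 47.8% in the time fit and 88.1% in the 10 h fit. For a log2 change of 1 these shares were 65.7%, 91% and 100%. These shares hold for that setting and need not be those of the real comparisons. As the fits differed in it, counts of called genes at 4 h and at 10 h cannot be compared directly. Members, lists and tests were chosen with earlier results of these data known. All 9 members are named, fbp-1, acu-6, NCU00575 and NCU04728 always, other list genes only among the called genes with the largest changes, and like genes by Pearson's r. Replicate numbers are those of the labels' per-library values; a whole-series table, not used here, numbers many libraries differently, so statements by replicate number and the pairing follow the labels. Same-numbered replicates deviated together, with every r over 0.1, in 2 comparisons, Δclr-1 against WT on Avicel (0.382, 0.207 and 0.393) and Δcre-1Δclr-3 against Δclr-3 (0.109, 0.183 and 0.15). Pseudocounts, filters, scalings, replicate block and left-out libraries were varied.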

Additional observations from a re-analysis of the deposited data

Results flagged for a closer look

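In the fits of all libraries, the effects of the same deletion differed between backgrounds or times for the following genes, each by limma's test of the difference itself with adjusted p over all genes. For os-1, the effect in Δclr-3 minus that in WT was -0.19 for hexokinase (adjusted p = 0.0317), -0.22 for triosephosphate isomerase (0.0304) and -0.30 for phosphoglycerate kinase (0.0315). None of these 3 was called under TPM scaling, or without replicate 2 or 3 of WT or replicate 2 of Δclr-3.

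For os-2 the difference was -0.41 for hexokinase (adjusted p = 5.86e-05), -0.61 for phosphoglucose isomerase (2.56e-06), -0.68 for phosphofructokinase (6.61e-06), -0.63 for aldolase (9.33e-07), -0.74 for triosephosphate isomerase (2.16e-07) and -0.59 for enolase (2.45e-06). For cre-1 it was -0.35 for hexokinase (adjusted p = 0.000143), -0.23 for phosphoglucose isomerase (0.0134), -0.61 for triosephosphate isomerase (7.78e-07) and -0.21 for enolase (0.0144), against 0.76 for gpd-1 (0.000148) and 0.26 for phosphoglycerate kinase (0.0365). After median-ratio rescaling those of phosphoglucose isomerase and enolase came to 0.0011 and 0.0152, and hexokinase was not called. The phosphoglycerate kinase call was lost without the farthest library of each group (adjusted p = 0.0567) and without any single one of 7 libraries.

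For clr-3, the effect at 10 h minus that at 4 h was 0.67 for hexokinase (adjusted p = 0.00516) and 0.95 for phosphoglycerate kinase (0.00421). Time and library set cannot be told apart in these last 2.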

How the results depend on the processing

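Counts are of the 9 genes called, and smaller shifts of a count are not all named. Median-ratio rescaling gave 0 for Avicel, Δclr-1 and Δclr-2, 1 in Δclr-3 at 4 h, 2 in Pccg1-clr-2 and 5 for Δos-1 against Δos-2. TPM scaling gave 1 in Δclr-3 at 4 h and 0 for the os-1 interaction. It also gave 4 lower on Avicel, 3 higher and 3 lower for Δos-1 against Δos-2, and 2 upwards and 2 downwards for the cre-1 interaction. Fits of only the groups compared gave 0 for Avicel, Δclr-1 and Δclr-2, 1 in Δclr-3 at 4 h and 2 in Pccg1-clr-2. The shares of all genes called in those fits are not given here. Without the farthest library of each group the os-1 interaction had 1. Asking for 2-fold gave 1 in Δos-2Δclr-3, 1 in Δcre-1Δclr-3, 2 in WT between times and 0 in the other 15 comparisons. Leaving out 1 library gave 3 to 5 on Avicel, 2 to 4 in Δclr-1, 4 to 5 in Δclr-2, 1 to 2 in Δclr-3 at 4 h, 1 to 6 in Pccg1-clr-2, 6 to 7 in Δclr-3 at 10 h, 3 to 4 in Δos-1, 7 in Δos-2, 8 in Δcre-1, 6 to 7 for Δos-1 against Δos-2, 3 to 6 in Δos-1Δclr-3, 9 in Δos-2Δclr-3 and Δcre-1Δclr-3, 0 to 3, 6 and 5 to 6 for the os-1, os-2 and cre-1 interactions, 6 to 8 in WT between times and 2 to 4 for clr-3 with time. On Avicel the 3 came without replicate 3 of starved WT.

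Median-ratio rescaling changed the sign of phosphoglucose isomerase (0.18) and triosephosphate isomerase (0.0421) in Δclr-3 at 10 h, hexokinase (0.0937), aldolase (0.0492) and pyruvate kinase (0.0524) in Δos-2, aldolase for Δos-1 against Δos-2 (-0.0138), pyruvate kinase in Δos-2Δclr-3 (0.0193), hexokinase in Δcre-1Δclr-3 (0.15), and the cre-1 interactions of phosphoglucose isomerase (0.0011) and enolase (0.0152). Only phosphoglucose isomerase in Δclr-3 and hexokinase in Δcre-1Δclr-3 were then called with the new sign. The others were not called after rescaling. The cause was not tested. Pseudocounts of 0.1 and 5 FPKM, a filter at 10 FPKM and the replicate block changed none of 162 member results. With the replicate block, gpd-1 on Avicel stayed at 0.25 (adjusted p = 0.59). Without a filter 1 call was lost, enolase in Δclr-2 (adjusted p = 0.0514). Without counts, no interval from depth can be given.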
